A study of Mus musculus with 4 samples.

Results

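The 10 genes described here encode the classical MHC class II chains H2-Aa, H2-Ab1 and H2-Eb1, the invariant chain Cd74, the peptide editor subunits H2-DMa, H2-DMb1 and H2-DMb2, the editor's inhibitor H2-Oa and H2-Ob, and the class II transactivator Ciita. They were taken by symbol from the 32285 genes of the feature tables, and all 10 were found. The data were single-cell RNA-seq of total bone marrow (BM) from the 5TMM model, in which 5TGM1 mouse myeloma cells were injected into the tail vein of C57BL/KawRij mice. After 3 weeks, 2 mice received vehicle and 2 mice received purinostat mesylate (PM), an inhibitor of class I and IIb histone deacetylases, at 10 mg/kg, and BM was taken 24 h later. All 4 mice carried the myeloma graft, so no tumor-free marrow was compared. Red cells had been lysed before loading, and each library held the cells of 1 mouse.

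MHC class II molecules display peptides from taken-up proteins to CD4+ T cells, and in marrow they are known from B cells, dendritic cells (DCs), and some monocytes and macrophages. Ciita binds no DNA itself: it is recruited to the factors (RFX, CREB and NF-Y) that sit on the X and Y boxes of class II promoters. The invariant chain fills the groove of a new class II dimer, H2-DM exchanges what is left of it for peptide, and H2-DO, the dimer of H2-Oa and H2-Ob, restrains H2-DM.

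The promoters of the genes show the shared layout that Ciita acts on. RefSeq promoter windows (250 bases before to 50 after a start, GRCm38.p6) were matched by symbol for 7 of the 10 genes, in 8 windows since H2-DMa has a pair of them. In 6 of the 8 windows the Y box core TGATTGG followed an X box core of the form CNNNNAAC, with 12 to 30 bases between them. The stretches that follow, all on chromosome 17, run 5′ to 3′ along the gene's strand, with both boxes in capitals:
H2-Aa (chr17:34287857-34287917, minus strand): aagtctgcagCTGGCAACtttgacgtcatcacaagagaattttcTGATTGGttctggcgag
H2-Eb1 (chr17:34305763-34305822, plus strand): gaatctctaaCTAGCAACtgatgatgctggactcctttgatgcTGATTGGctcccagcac
H2-DMb1 (chr17:34153084-34153144, plus strand): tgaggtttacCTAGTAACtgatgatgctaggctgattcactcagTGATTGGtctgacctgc
H2-DMb2 (chr17:34145113-34145173, plus strand): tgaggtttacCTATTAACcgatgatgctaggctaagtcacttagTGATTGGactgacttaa
H2-Oa (chr17:34092290-34092350, plus strand): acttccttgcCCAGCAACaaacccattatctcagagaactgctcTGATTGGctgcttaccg
H2-Ob (chr17:34238805-34238862, plus strand): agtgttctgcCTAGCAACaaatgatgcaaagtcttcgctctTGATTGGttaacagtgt

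The boxes were 26 bases apart in H2-Aa, H2-DMb1, H2-DMb2 and H2-Oa, 25 bases apart in H2-Eb1 and 23 bases apart in H2-Ob. On either strand, the same pair was present in 148 of 32851 mouse promoter windows (0.451%), and TGATTGG alone in 7.82% of them. The form of the pair was written after these promoters had been read, so its presence in them is a description. Neither window of H2-DMa held the letters TGATTGG. The H2-Oa and H2-Ob promoters, whose genes were called in monocyte-like cells where H2-Aa was not, thus carried the same pair of boxes as the classical chain.

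**Figure D1:**
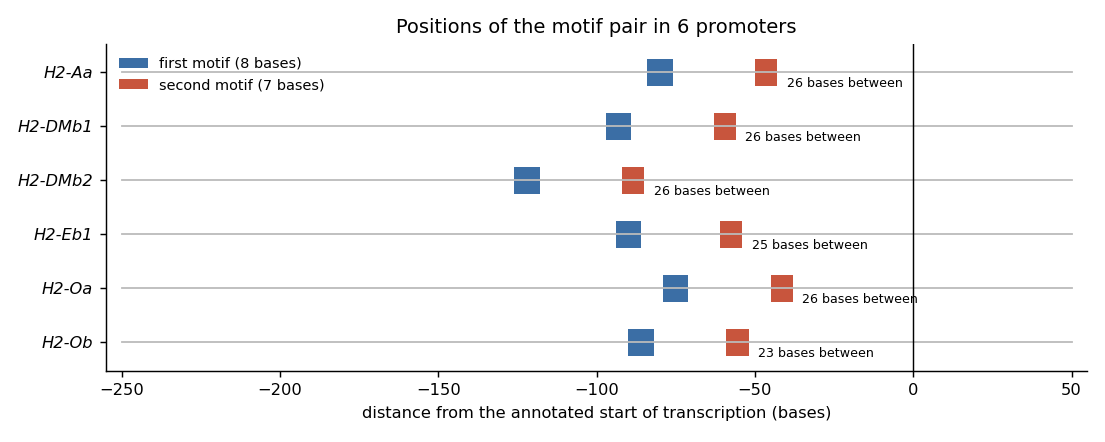
Positions of the X box core (first motif, blue) and Y box core (second motif, red) in the 6 promoters that held the pair, as bases from the annotated start (x axis), 1 row per gene. The Y boxes begin between 92 and 45 bases before the start, and 23 to 26 bases lie between the boxes in all 6.

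In the annotation of GRCm38, 8 of the genes lie on chromosome 17, among them H2-Aa at 34282744-34287823 on the minus strand and H2-Ab1 at 34257689-34269419 on the plus strand. Ciita lies on chromosome 16 (10480059-10528418) and Cd74 on chromosome 18 (60803848-60812652), both on the plus strand. The transcripts of H2-DMb1 and H2-DMb2 were identical at 94.7% of 1218 aligned bases and shared 209 of 1315 windows of 90 bases, so the division of UMIs between that pair is uncertain.

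The 4 libraries held 69828595 to 109447030 UMIs (unique molecules) each, and 7826 to 13387 cells were kept per library. Pairs of libraries shared 18 to 41 cell barcodes. Cells were clustered without the class II genes, named by markers ("-like"), and their UMIs were summed per mouse and class. Levels are given as CPM (counts scaled to the same total in every sum), always in the order vehicle 1, vehicle 2, PM 1, PM 2. Levels per gene rest on 3′ tags, and only levels of the same gene are compared. A gene was called changed at an edgeR quasi-likelihood adjusted p below 0.05 with an absolute log2 fold change above 0.5. The p-values measure the spread between 2 mice a group.

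Across cell classes, H2-Aa was highest in conventional DC-like (cDC-like) cells, at 6450.5 ± 269 CPM (SD, n = 4 mice), with 6114, 6639.6, 6692 and 6356 CPM in the 4 mice. B-like cluster 7 (led by Ighd, Fcer2a and Cr2) averaged 3637 CPM, and monocyte-like cluster 26 (led by Ace, Adgre4, Cd300e and Cx3cr1) averaged 3974 CPM through 1 mouse, PM 1, at 7869 CPM, with the other 3 mice at 2626 to 2716 CPM. The range of cluster 26 overlapped that of cDC-like cells, through PM 1, and that of B-like cluster 7. cDC-like cells (6114 to 6692 CPM) lay apart from B-like cluster 7 (3151 to 4163 CPM). A gap then separated these 3 classes from plasmacytoid DC-like (pDC-like) cells at 1848 CPM. Macrophage-like cells followed at 1196 CPM and B-like cluster 18 (led by Ms4a1 and Tnfrsf13c) at 940.2 CPM. From pDC-like cells to cluster 18 the ranges overlapped from one to the next. With doublets and sub-clusters led by other types' genes left out, cluster 26 was 1578, 1214, 2097 and 1047 CPM, below pDC-like cells treated alike (2150.3, 2038, 2426 and 2299.5 CPM). Monocyte-like cluster 6 (led by Vcan, Fn1, Saa3 and Ccr2) stood at 362 CPM and B-like cluster 15 (led by Vpreb1, Igll1 and Rag1) at 142 CPM, each apart from the class above it. Neutrophil-like cells stood at 2.74 CPM.

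The order of Ciita levels was close to that of H2-Aa. Its level was 422, 319, 218 and 274 CPM in cDC-like cells. Its means were 207 CPM in B-like cluster 7, 97.1 CPM in monocyte-like cluster 26 and 69.7 CPM in B-like cluster 18. They were 56.0 CPM in pDC-like cells and 31.6 CPM in monocyte-like cluster 6. Cluster 18 and macrophage-like cells differed from the order of H2-Aa. By its mean, cluster 18 lay below pDC-like cells for H2-Aa but above them for Ciita, with overlapping ranges for Ciita. Macrophage-like cells lay above B-like clusters 18 and 15 and monocyte-like cluster 6 for H2-Aa. For Ciita they lay below all of these (8.74 against 16.7 CPM in cluster 15), a level that rested on 4, 0, 2 and 2 UMIs. The vehicle 2 value of 0 allows up to 7.74 CPM (3 counts, counting error only).

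The order of the H2-DO genes differed from that of H2-Aa. H2-Ob was highest in B-like cluster 7 at 635 CPM, then in cluster 18 at 331 CPM and cluster 15 at 102 CPM, and stood at 77.9 CPM in cDC-like cells. H2-Oa averaged 209.9 CPM in cluster 7, against 131 CPM in pDC-like, 121 CPM in cluster 18, 119 CPM in basophil-like and 118 CPM in cDC-like cells. Both genes were thus led by the same B-like cluster, and for both its range lay above that of the next class. H2-DMb2 shared this lead, at 557 CPM in cluster 7, 233 CPM in cluster 18 and 70.4 CPM in cDC-like cells.

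Over 52 points (13 cell types by 4 mice, which share libraries and depths), Pearson's r of log2 CPM with Ciita was 0.88 for H2-Aa and 0.48 for H2-Oa and for H2-Ob. Of the 9156 genes averaging at least 10 CPM, those outside the 10 that were most like Ciita were Kmo and Gm15987 (0.84 each), Dnajc7 and Ly86 (0.82 each) and Pip4p1 (0.81). Those most like Cd74 were Filip1l and Blnk (0.87 each), Ctss (0.84), which encodes the protease that trims the invariant chain, Sdc4 (0.81) and Hdac9 (0.80). Cd74 itself correlated at 0.93 with H2-Eb1.

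**Figure D2:**
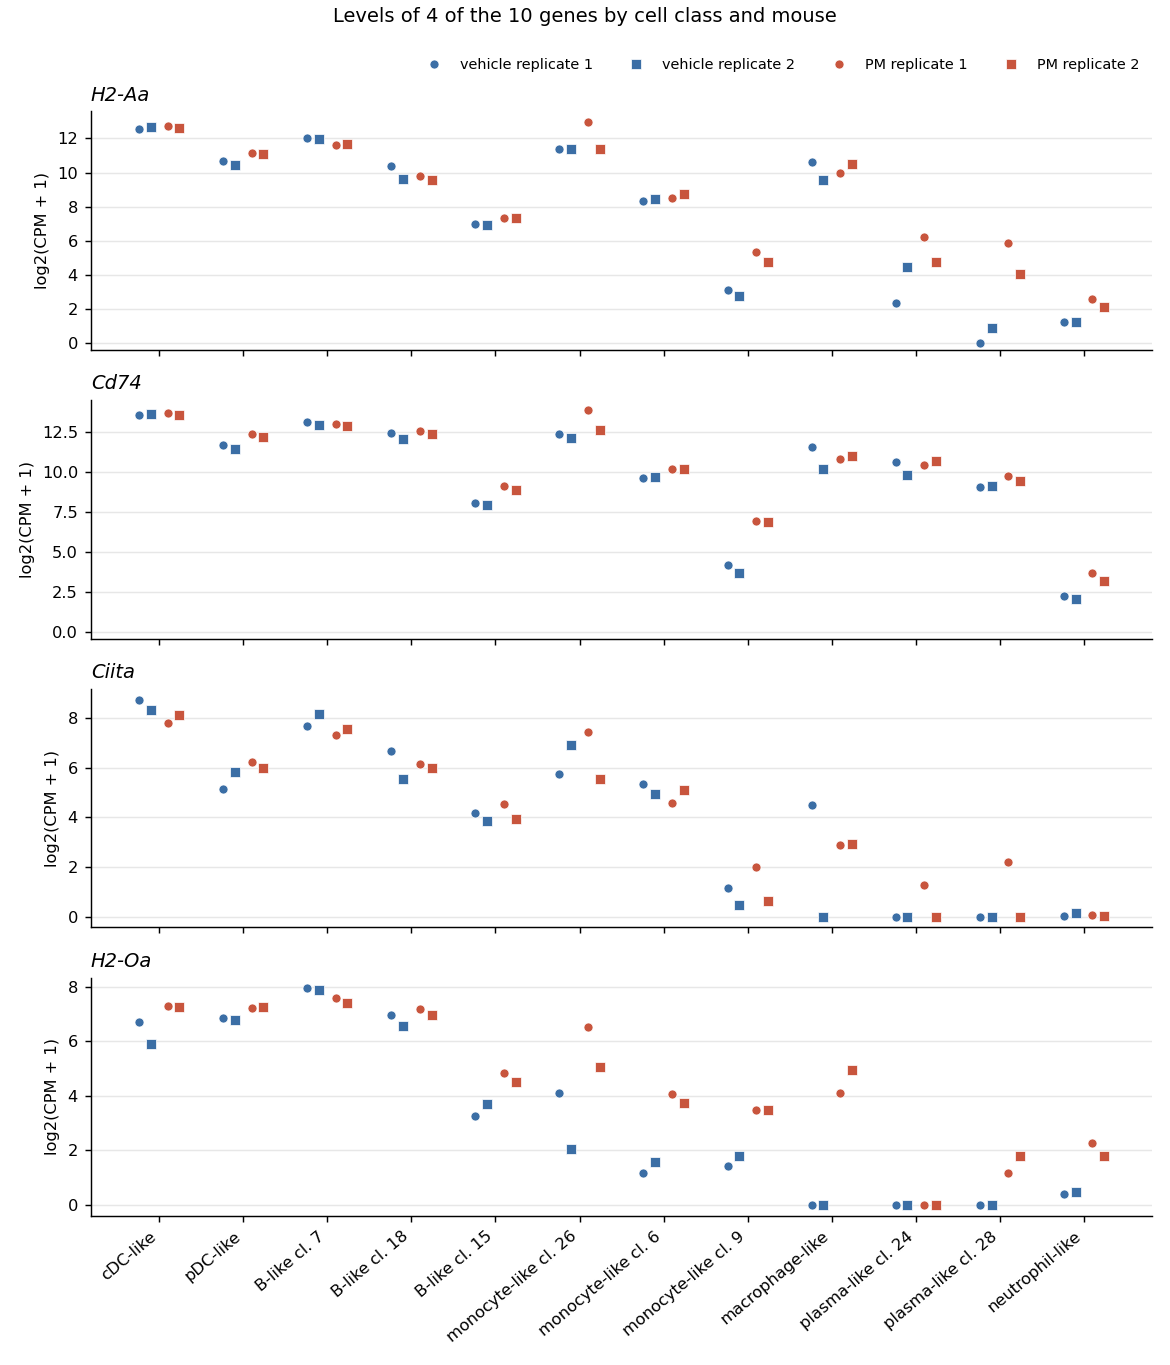
Levels of H2-Aa, Cd74, Ciita and H2-Oa as log2 of CPM plus 1 (y axis) in 12 cell classes (x axis), 1 point per mouse, vehicle in blue and PM in red. H2-Aa lies between 6114 and 6692 CPM in the cDC-like cells of all 4 mice, and PM 1 stands apart in monocyte-like cluster 26 at 7869 CPM.

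Summed over cDC-like cells, the classical class II chains and Cd74 differed between PM and vehicle by less than the spread between mice. H2-Eb1 was 3587, 3651, 3639 and 3833 CPM (log2 fold change 0.02 ± 0.15, SE), and Cd74 was 12339, 12875, 13634 and 12225 CPM (0.01 ± 0.12), with overlapping groups. None of the 10 genes was called in cDC-like cells by edgeR, against 0.0448% of all genes higher and 0% lower, while 2 were higher and 1 lower at an unadjusted p below 0.05. These were H2-DMb2 (41.5, 20.5, 89.2 and 130.3 CPM, edgeR adjusted p = 0.210), H2-Oa (104, 58.6, 157 and 151 CPM, 0.442) and Ciita (log2 fold change -0.62, 0.707). The class held only 16, 38, 51 and 20 cells, and its summed cDC markers were 3462, 2837, 1954 and 2029.6 CPM. The part of this fall in the result was not tested. The class joined a sub-cluster led by Xcr1 and Fn1 (12, 19, 30 and 9 cells) with that led by Skint3 and Mrc1 (4, 19, 21 and 11 cells). H2-Eb1 in the first was 2789 and 1627 CPM in vehicle and 1726 CPM in PM 1. In the second it was 5892 CPM in vehicle 2 and 8081 and 8259.6 CPM in PM. The sub-clusters were not tested separately.

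In pDC-like cells, 4 of the 10 genes rose with PM, where 1.05% of all tested genes rose. H2-Ob had 14.5, 8.25, 66.5 and 78.5 CPM, so both PM mice lay far above both vehicle mice (log2 fold change 2.71 ± 0.40, edgeR adjusted p = 2.1e-05). Cd74 went from 3405 and 2747 CPM to 5282 and 4738 CPM (0.68 ± 0.15, edgeR adjusted p = 0.0113). H2-Eb1 went from 426 and 363 CPM to 684 and 592 CPM (0.67 ± 0.16, edgeR adjusted p = 0.0155). H2-DMb2, with 43.6, 13.7, 68.1 and 64.2 CPM, was the last of the 4 (1.36 ± 0.36, edgeR adjusted p = 0.0467). H2-Oa, the partner chain of H2-Ob, was 114, 109, 149 and 153 CPM and was not called (0.42 ± 0.21, edgeR adjusted p = 0.509).

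Only H2-Ob of these 4 kept its call under all 6 alternatives run for the finer classes, and it was the 1 call left without vehicle 2. Without PM 1, 2 of the 4 remained called, and without PM 2 the call for H2-DMb2 ended. B cell markers were present in pDC-like cells at 431, 568, 570.3 and 622 CPM, partly through a sub-cluster led by Ms4a1 and Cd79a. At the ratio of H2-Ob to B markers in the B-like cells of the same mouse, those markers would carry 7.19, 9.29, 13.2 and 11.8 H2-Ob UMIs, and 6, 6, 42 and 44 were counted. With doublets and sub-clusters led by other types' genes left out, H2-Ob was 12.6, 12.5, 64.2 and 69.8 CPM and 1 of the 10 genes was called. The log2 fold changes of Cd74 and H2-Eb1 were then 0.31 each.

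The pDC-like class was also made of different cells in the groups. The sub-cluster led by Ms4a1 and Cd79a held 42, 57, 22 and 25 cells, that led by Adamtsl2 and Scn3a held 2, 0, 85 and 42 cells, and that led by Iglc3 and Slamf9 held 37, 56, 6 and 26 cells. Cd74 in the first was 1704, 1417, 3433 and 3499.8 CPM, and in the last it was 4602 and 3818 CPM in vehicle and 5403 CPM in PM 2. H2-Ob in the first was 17.0, 3.05, 77.0 and 112 CPM, and in the last it was 13.8 and 13.2 CPM in vehicle and 65.2 CPM in PM 2.

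Summed over all DC-like cells, H2-Ob (18.9, 19.5, 50.1 and 60.6 CPM, 1.5 ± 0.21, edgeR adjusted p = 0.0156) and H2-DMb2 (24.1, 19.0, 45.4 and 57.3 CPM, 1.24 ± 0.22, edgeR adjusted p = 0.0450) were called higher, where 0.310% of genes were. The lower rate was 0.0200%. Leaving out PM 2 or the doublets left 1 of them called, and neither was called by DESeq2 or with sub-clusters led by other types' genes left out. The log2 fold changes ranged from 1.33 to 1.62 for H2-Ob and from 1.07 to 1.39 for H2-DMb2 over the 12 alternatives. At an unadjusted p below 0.05, 5 of the 10 genes were higher, among them H2-Aa (0.41 ± 0.18) and Cd74 (0.48 ± 0.18), both uncalled. DC-like cells that were neither cDC-like nor pDC-like (65, 66, 138 and 58 cells) were not tested separately. There H2-Aa was 718, 699, 1272 and 1517 CPM and Cd74 was 1219, 1147, 2346 and 2857 CPM.

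In B-like cells as a whole, none of the 10 genes was called by edgeR or DESeq2, and none passed an unadjusted p of 0.05, while 2.43% of all genes were called higher and 2.82% lower. Cd74 came nearest, with a log2 fold change of 0.47 ± 0.24 (edgeR adjusted p = 0.330). The class was not made of the same cells in both groups. Cluster 15, low in class II, took 34.6% and 49.1% of B-like cells in vehicle and 13.5% and 17.3% in PM, whereas cluster 7, high in class II, took 49.6% and 27.4% against 64.7% and 56.4%. Without vehicle 1, some of the 10 genes were called higher in the whole class, with vehicle 2 as the lone vehicle mouse. The share over all genes in that fit is not given here.

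Within B-like cluster 7, all 10 fold changes were negative, 9 of them at an unadjusted p below 0.05, and 2 genes were called lower, against 0.737% of all genes (1.06% higher). Ciita fell from 204 and 281 CPM to 159 and 185 CPM (-0.58 ± 0.16, edgeR adjusted p = 0.0227). H2-DMa fell from 390.1 and 403 CPM to 306 and 256 CPM (-0.52 ± 0.14, edgeR adjusted p = 0.0174). H2-Aa was 4163, 3964, 3151 and 3270.4 CPM, so that every vehicle mouse lay above every PM mouse, but it was not called (-0.37 ± 0.12, edgeR adjusted p = 0.0876). Cd74 overlapped between the groups (8930.3, 7852, 8420.1 and 7585 CPM). The call for Ciita ended without vehicle 2, without PM 1 or without PM 2, and that for H2-DMa without vehicle 2 or without PM 2. Both ended with the replicate number as a block. Among the sub-clusters of B-like cells at the class II level of cluster 7, that led by Prg2 and Crisp3 held 30, 36, 472 and 133 cells and that led by Rapgef4 and Dipk1a held 78, 196, 143 and 142 cells. Within the latter Ciita was 197, 309, 204 and 191 CPM, with overlapping groups, and H2-Aa was 4095, 4178, 3280.2 and 3503 CPM, with vehicle above PM. Within the former Ciita was 236, 275, 157 and 202 CPM and H2-Aa was 4558, 4010.1, 3236 and 3441 CPM, both with vehicle above PM. A sub-cluster led by Ighg3 and Igha held 8, 31, 223 and 95 cells. Its H2-Aa was 3133 CPM in vehicle 2 and 3029 and 3084 CPM in PM, and its Ciita was 181 CPM against 136 and 176 CPM.

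In B-like cluster 15 the called genes were higher after PM. Cd74 rose from 268 and 249.7 CPM to 553 and 471 CPM (1.07 ± 0.18, edgeR adjusted p = 3.0e-04) and kept its call in all 6 alternatives. H2-Eb1 (39.9, 31.0, 77.2 and 66.7 CPM, 1.20 ± 0.25), H2-DMb2 (5.71, 5.25, 16.5 and 17.2 CPM, 1.71 ± 0.49) and H2-Oa (8.56, 11.9, 27.9 and 21.9 CPM, 1.23 ± 0.39) were also called higher. The count of 4 of 10 compares with 4.51% of all genes (4.19% lower). It dropped to 1 without vehicle 2, to 2 without PM 1, and to 1 with doublets and sub-clusters led by other types' genes left out. The call for H2-Oa also ended without vehicle 1 and with the replicate block, and that for H2-DMb2 without PM 2. H2-Ob was 148, 98.8, 82.3 and 78.1 CPM and was not called. Summed neutrophil markers of this cluster were 44944, 37178, 97833 and 46827 CPM. Its summed B markers were 9061, 10046, 5558 and 7023 CPM and its median depth was 2521, 2619, 5095 and 4449 UMIs. The part of these values in the result was not tested. In cluster 18 none of the 10 genes was called by edgeR or passed an unadjusted p of 0.05 (background 0.297% higher and 0.148% lower).

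**Figure D3:**
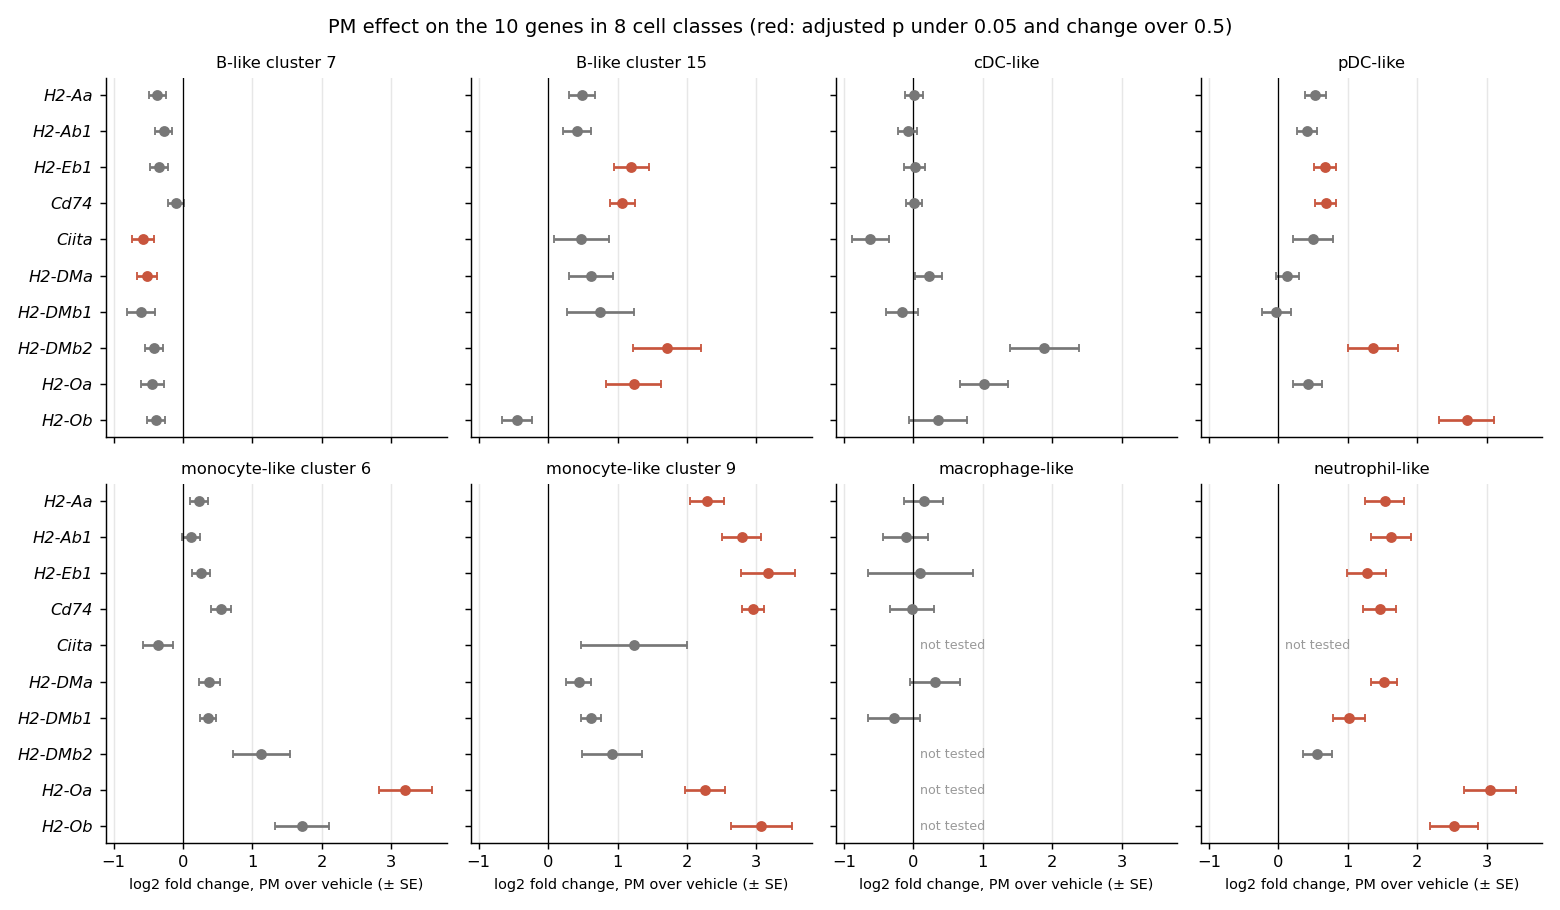
log2 fold change, PM over vehicle (x axis, point with SE bar), of the 10 genes in 8 cell classes, red where called by edgeR and gray where not. All 10 values are below 0 in B-like cluster 7, and H2-Oa reaches 3.20 in monocyte-like cluster 6.

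In monocyte-like cells, both H2-DO genes rose with PM, and no classical chain was called. H2-Oa was 1.83 and 2.35 CPM in vehicle and 12.7 and 11.3 CPM in PM (2.51 ± 0.25, edgeR adjusted p = 0.00450). H2-Ob was 1.65 and 2.68 CPM in vehicle and 8.24 and 9.0 CPM in PM (1.98 ± 0.29, edgeR adjusted p = 0.0187). These were the 2 genes called of the 10, where 0.749% of all genes were called higher, and DESeq2 called 2 as well. H2-Oa was called in all 12 alternatives, whereas H2-Ob lost its call without PM 1.

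H2-Aa stayed at 191, 192, 216 and 198 CPM (0.09 ± 0.11, edgeR adjusted p = 0.802) and H2-Ab1 at 165, 159.7, 184 and 159 CPM (0.05 ± 0.12, 0.901). Cd74 was 443, 406, 608 and 562 CPM (0.44 ± 0.13, edgeR adjusted p = 0.171). Ciita was 17.7, 13.5, 11.1 and 11.4 CPM, with both PM mice below both vehicle mice, but was not called (-0.50 ± 0.17, edgeR adjusted p = 0.223). It was called lower without vehicle 2. H2-Oa and H2-Ob thus lay higher after PM while the level of the transactivator did not.

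Monocyte-like cluster 6 held most of the H2-Aa UMIs of this class. H2-Oa there went from 1.24 and 1.98 CPM to 15.8 and 12.4 CPM (3.20 ± 0.38, edgeR adjusted p = 0.00395), on 8, 8, 93 and 30 UMIs, and was the 1 gene called against 1.51% of all genes (0.597% lower). The call ended without PM 1. At the ratio found in B-like cells, the B markers in the cluster would carry 3.52, 2.25, 6.50 and 1.31 H2-Oa UMIs. H2-Ob was 2.33, 5.19, 11.7 and 11.5 CPM (1.71 ± 0.39, edgeR adjusted p = 0.0530), and Cd74 was 797, 821, 1180.3 and 1183 CPM (0.55 ± 0.14, edgeR adjusted p = 0.0851).

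The make-up of cluster 6 differed between the groups. Its sub-cluster led by Saa3 and Atf3 took 58.5% and 57.9% of cells in vehicle and 0% and 7.58% in PM, and that led by Slfn5, Usp18 and Ifit1 took 1.19% and 2.92% against 49.2% and 51.1%. H2-Aa was 39.3 and 45.1 CPM in the former in vehicle and 289 CPM in the 20 cells of PM 2. In the latter it was 8.55 CPM in the 12 cells of vehicle 2 and 513 and 528 CPM in PM. A sub-cluster led by Cxcl9 and Cxcl10, at 1306 and 1571 CPM of H2-Aa in vehicle and 3022 CPM in the 15 cells of PM 2, took 23.6% and 21.7% of vehicle cells and 0.279% and 4.55% of PM cells. A further sub-cluster, led by Sparc and Mxd4, took 0.299% and 2.19% of vehicle cells and 30.2% and 25.4% of PM cells. Its H2-Aa was 11.8 CPM in the 10 cells of vehicle 2 and 75.4 and 33.6 CPM in PM. These levels are of all monocyte-like cells of a sub-cluster, whereas the shares are of cluster 6. The similar sums of H2-Aa in the groups were therefore drawn from different cells.

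Per cell, the spread of class II UMIs differed as well. With each cell thinned to 5000 UMIs, 30.1% and 29.2% of cluster 6 cells in vehicle and 67.9% and 61.6% in PM held a Cd74 UMI (37.5%, 35.0%, 75.3% and 74.2% before thinning). The share with a UMI of H2-Aa, H2-Ab1 or H2-Eb1 was 19.7%, 17.9%, 32.7% and 34.9%, and that with a UMI of H2-Oa or H2-Ob was 1.51%, 2.30%, 10.8% and 10.9%. In neutrophil-like cells the Cd74 share was 1.61%, 1.27%, 4.32% and 2.84%, and the share with a UMI of the 3 classical chains was 1.53%, 1.68%, 6.0% and 3.38%. For the H2-DO genes it was 0.294%, 0.409%, 2.63% and 2.01%. Median depths were 9258, 9808, 7668 and 8972 UMIs in cluster 6 and 5546, 5694, 4264 and 4661 UMIs in neutrophil-like cells, and thinning left out 75, 20, 105 and 35 of the former and 2664, 1594, 4178 and 2912 of the latter. The tenth of cluster 6 cells richest in H2-Aa, H2-Ab1, H2-Eb1 and Cd74 UMIs together held 87.2% and 91.1% of them in vehicle. In PM it held 72.2% and 69.8%. Taken with Cd74, class II UMIs were thus spread over more cells after PM. Cells with a Ciita UMI before thinning averaged 36.4, 62.4, 51.2 and 48.9 thinned UMIs of the classical chains and Cd74. Those without averaged 1.94, 1.45, 4.89 and 3.65.

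**Figure D4:**
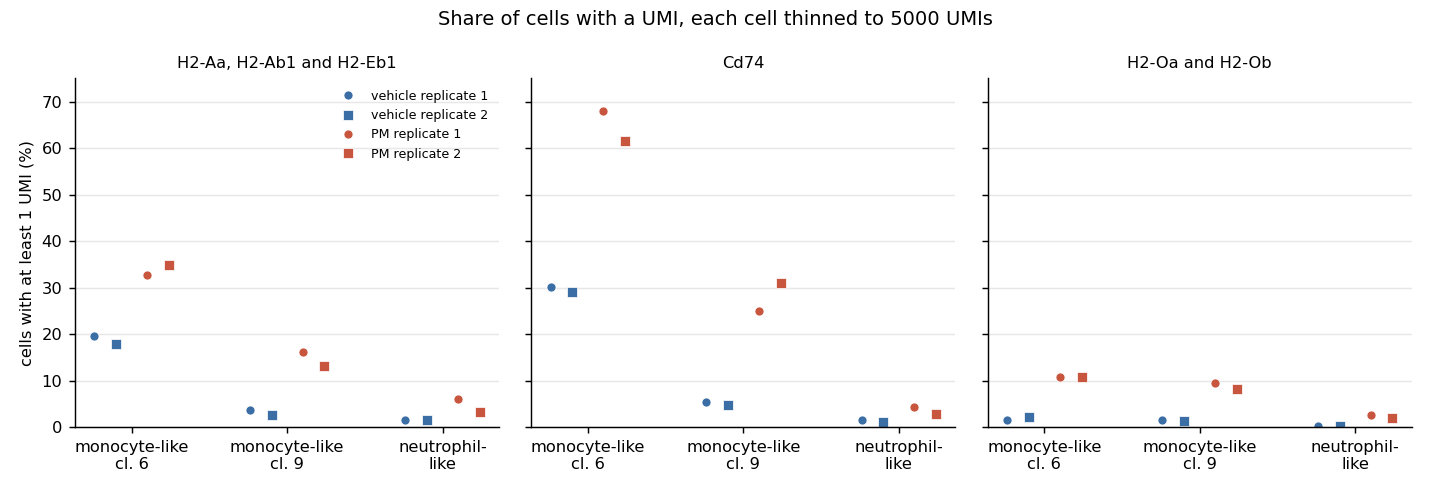
Share of cells (%) with at least 1 UMI of the genes named above each panel, every cell thinned to 5000 UMIs, 1 point per mouse. In monocyte-like cluster 6 the Cd74 share is 30.1% and 29.2% in vehicle and 67.9% and 61.6% in PM, and in neutrophil-like cells it is at most 4.32%.

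Monocyte-like cluster 9 (led by F13a1, Fn1, Nrg1 and Klf4) started from very low class II levels, and 6 of the 10 genes rose there against 1.02% of all genes. Cd74 went from 17.7 and 12.2 CPM to 122 and 115 CPM (2.95 ± 0.16, edgeR adjusted p = 2.1e-05). H2-Aa was 7.53, 5.69, 39.0 and 26.4 CPM, H2-Ab1 was 5.23, 3.17, 35.1 and 24.4 CPM, and H2-Eb1 was 1.2, 0.793, 10.9 and 6.83 CPM, with log2 fold changes of 2.29, 2.79 and 3.17. H2-Oa (2.26 ± 0.29) and H2-Ob (3.07 ± 0.44) completed the 6. All 6 had both PM mice above both vehicle mice.

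Ciita itself rested on 12, 3, 37 and 3 UMIs in cluster 9, with overlapping groups. Summed B markers were 16.7, 37.2, 66.2 and 59.6 CPM and were higher in both PM mice as well. At the ratio found in B-like cells they would carry 67.8, 63.9, 466 and 149.6 of the 169, 92, 1491 and 622 Cd74 UMIs. For H2-Eb1 they would carry 11.9, 11.4, 68.9 and 22.4 UMIs, and 11, 6, 134 and 37 were counted. For H2-Ob the values were 6.46, 6.32, 29.8 and 10.9 against 4, 8, 73 and 35 counted. For H2-Oa they were 1.81, 1.82, 11.1 and 3.51 against 16, 19, 124 and 55. The part of B cell RNA in these rises was not tested. Without PM 1 only the call for Cd74 remained, and without PM 2 that for H2-Ob ended.

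Monocyte-like cluster 26 gave no call among 8 genes tested (background 0.0222% higher), although 5 were higher at an unadjusted p below 0.05. PM 1 stood apart, with H2-Aa at 2716, 2626, 7869 and 2684 CPM and Cd74 at 5287, 4471, 15535 and 6489 CPM. A sub-cluster led by C1qa, C1qc and C1qb held 4509 and 10564 CPM of H2-Aa in vehicle and 12351 CPM in PM 1. With doublets and such sub-clusters left out, H2-Aa of cluster 26 was 1578, 1214, 2097 and 1047 CPM, with overlapping groups. Cd74 was then 4244, 2488, 6442 and 4429 CPM, with both PM mice above both vehicle mice. Without PM 2, some of the genes were called, but the PM group then rested on PM 1 alone, the mouse that stood apart. The cluster held 81, 60, 44 and 40 cells.

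In macrophage-like cells (led by Fcna, Cd5l, Vcam1 and C1qa) none of the 6 genes tested was called by edgeR or DESeq2 or passed an unadjusted p of 0.05 (background 0.285% higher and 0% lower). H2-Aa was 1577, 751, 996 and 1459.6 CPM (0.15 ± 0.28) and Cd74 was 2997, 1172, 1793 and 2109 CPM (-0.02 ± 0.32), and the spread between the vehicle mice exceeded the difference between groups. H2-Oa was below the count filter, with 0, 0, 5 and 9 UMIs, where 0 UMIs allow up to 16.4 CPM in vehicle 1 and 7.74 CPM in vehicle 2. Without vehicle 1, which left vehicle 2 alone in its group, a call higher was made among the 10 genes. The median macrophage-like cell held 741 to 1042 UMIs, and the SE of the 6 fold changes was 0.28 to 0.76 on the log2 scale. Summed neutrophil markers of these cells were 170409, 193648, 228828 and 173853 CPM, and summed macrophage markers were 14191, 13426, 15796 and 17436 CPM. A sub-cluster led by Ms4a1 and Cd79a held 13, 19, 31 and 36 cells. The part of neutrophil RNA in the levels was not tested.

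**Figure D5:**
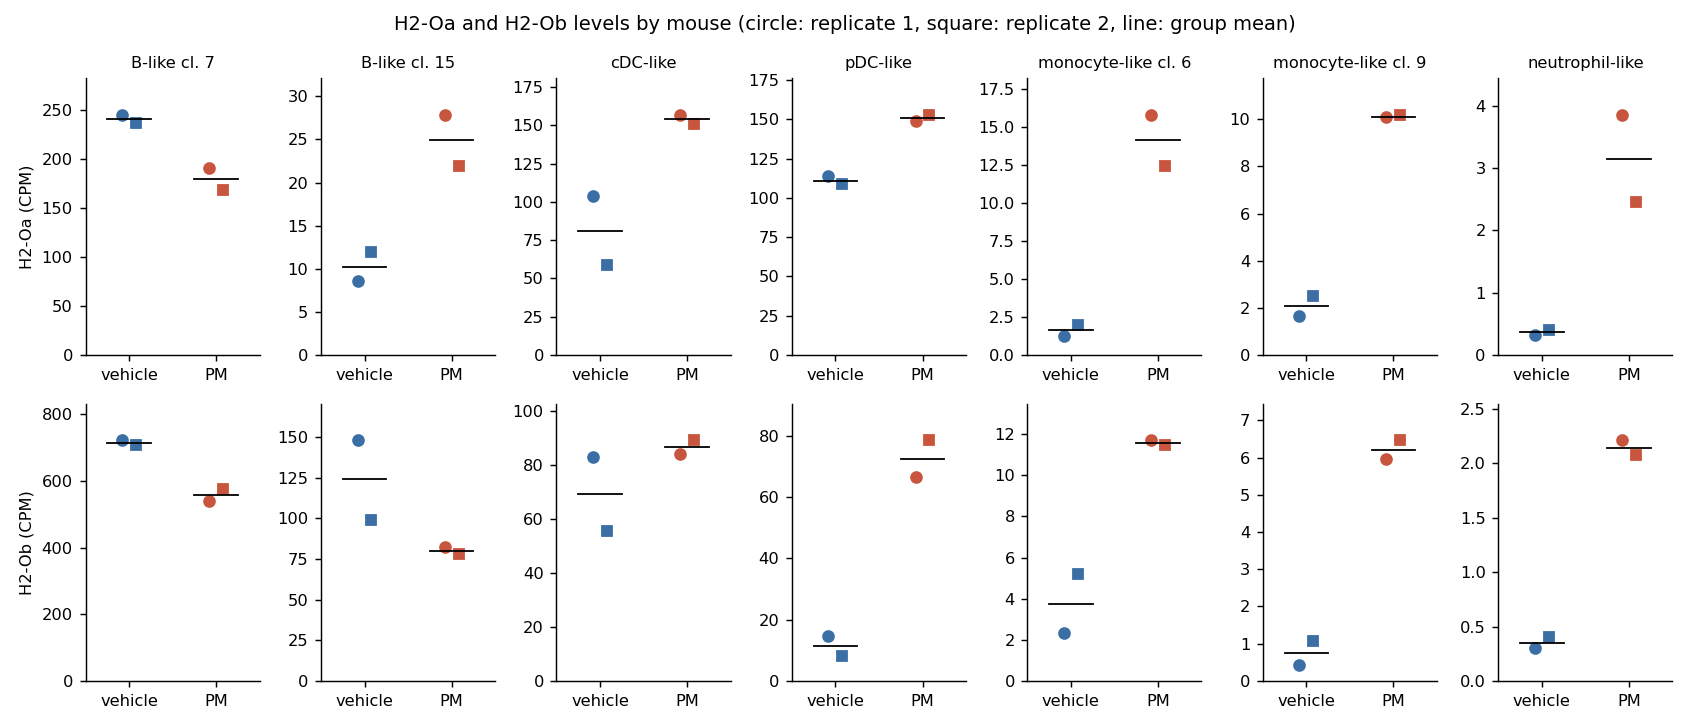
Levels of H2-Oa (upper row) and H2-Ob (lower row) in CPM per mouse in 7 cell classes, vehicle in blue and PM in red, with a line at each group's mean and a y axis of its own for each panel, starting at 0. In monocyte-like cluster 6, H2-Oa is 1.24 and 1.98 CPM in vehicle and 15.8 and 12.4 CPM in PM.

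The PM effect on H2-DO differed between cell types when tested directly. For H2-Oa, the effect in B-like cells was lower than that in monocyte-like cells by 2.20 on the log2 scale (difference -2.20 ± 0.28, edgeR adjusted p = 7.3e-06), and for H2-Ob the difference was -2.0 ± 0.34 (edgeR adjusted p = 0.0109). Those were the 2 of 10 genes called, against 1.87% of all genes in that direction and 1.89% in the other, and both were called in all 8 alternatives. The B-like sum joined H2-Oa effects of -0.44 in cluster 7, 0.47 in cluster 18 and 1.23 in cluster 15, clusters whose shares shifted. Mean vehicle H2-Oa was 94.7 CPM in B-like and 2.09 CPM in monocyte-like cells. The part of make-up and starting level in these differences was not tested. Between DC-like and monocyte-like cells, H2-Oa differed by -1.95 ± 0.27 (edgeR adjusted p = 0.0181, background 0.0675%, and 0.0506% in the other direction). That call ended without vehicle 1, without vehicle 2 or without PM 1. H2-Ob was not called between those types (-0.48 ± 0.33, edgeR adjusted p = 0.813). For the macrophage-like against the monocyte-like effect no gene of the 10 was called by edgeR or passed an unadjusted p of 0.05 (background 0.148% higher and 0.0695% lower). For H2-Oa (8.13 ± 4.89) and H2-Ob (6.91 ± 6.46) this contrast could not decide, since macrophage-like cells held 0 UMIs of either gene in vehicle 1 and vehicle 2.

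Plasma-like cells were summed from cluster 24 (led by Igha and Jchain) and cluster 28 (led by Rhox5, Mt2, Eaf2 and Afp). None of 7 genes tested was called by edgeR or DESeq2 over both clusters (background 0.0420% higher and 0.0210% lower), with 4 higher at an unadjusted p below 0.05. In cluster 28 (21, 27, 92 and 31 cells) H2-DMa rose from 3 and 2 UMIs to 78 and 18 UMIs (2.88 ± 0.57, edgeR adjusted p = 0.00774), 1 of 6 genes tested against 0.524% of all genes. The call ended without vehicle 1, without vehicle 2, without PM 1, or with doublets and sub-clusters led by other types' genes left out. H2-Aa was counted at 0, 1, 188 and 19 UMIs there, of which 90 lay in a single PM 1 cell. H2-Ab1 had 0, 2, 198 and 17 UMIs, with 85 in a single PM 1 cell. H2-Eb1 was less concentrated, with 0, 6, 294 and 38 UMIs in 0, 4, 59 and 14 cells and at most 24 in any cell. It was not called (4.32 ± 1.40, edgeR adjusted p = 0.633). With doublets and sub-clusters led by other types' genes left out, H2-Eb1 was 0, 5.17, 82.3 and 30.7 CPM.

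Neutrophil-like cells, which lack class II by their usual description, were used as a low reference, a choice made after seeing the data. Even so, 8 of 9 genes tested were called higher after PM, where 6.08% of all genes were (1.04% lower). Levels remained low. H2-Oa was 0.325, 0.405, 3.86 and 2.45 CPM (3.05 ± 0.37, edgeR adjusted p = 0.00108), H2-Ob was 0.301, 0.405, 2.21 and 2.08 CPM (2.53 ± 0.35, edgeR adjusted p = 0.00210) and H2-DMa was 2.16, 2.58, 7.70 and 6.63 CPM (1.52 ± 0.19, edgeR adjusted p = 0.00154). Those 3 were called in all 9 alternatives, while the total ran from 3 (without vehicle 1) to 8. It was 5 without vehicle 2 and 5 without PM 1. The make-up of the class also differed between the groups. Its cluster led by Prok2 and Stfa2 held 1044, 276, 45 and 112 cells. That led by Retnlg and Asprv1 held 158, 232, 1213 and 725 cells, and that led by Ifit1 and Ifit3b held 130, 66, 441 and 303 cells. The part of this shift in the result was not tested.

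Summed B markers of neutrophil-like cells were 2.53, 7.81, 14.2 and 10.3 CPM, with none of the 10 markers at 0 in all mice. At the ratio found in B-like cells they would carry 8.16 and 4.76 CPM of the 12.2 and 8.04 CPM of Cd74 in PM, 7.32 and 3.33 of the 145 and 73 H2-Oa UMIs, and 11.3 and 4.87 of the 289 and 198 H2-DMa UMIs. Summed markers of some other types were also higher in both PM mice. NK markers were 15.2, 17.6, 46.4 and 29.7 CPM, and endothelial markers were 8.02, 6.77, 24.9 and 25.8 CPM. Those of T cells (5.70, 9.98, 10.6 and 9.72 CPM) and plasma cells (163, 134, 149.8 and 164 CPM) overlapped between the groups. The part of RNA from B cells or other cells in the result was not tested. With cells that held a B marker UMI left out, 8 genes were again called. This keeps any cell with a stray class II UMI but no B marker UMI, so it cannot show how much was B cell RNA. With doublets removed, the calls for Cd74, H2-Aa and H2-Eb1 ended.

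In HSPC-like cells all 10 fold changes were positive and 6 passed an unadjusted p of 0.05, but edgeR called none (background 0.0238% higher and 0% lower). H2-DMa was 48.0, 52.1, 71.3 and 54.2 CPM, and H2-Oa was 4.98, 4.50, 8.74 and 8.25 CPM, with both PM mice above both vehicle mice. In T-like cells edgeR called none of 7 genes tested and 4 were higher at an unadjusted p below 0.05 (background 0.0525% in each direction). There H2-Ob was 10.1, 20.5, 39.7 and 36.5 CPM and H2-Oa was 10.1, 17.3, 29.6 and 27.5 CPM. DESeq2 was not run on either type.

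Of 45 other genes of class II presentation and its control, 41 were in the files. In B-like cells 1 of 40 tested rose and 3 fell, beside 2.43% and 2.82% of all genes, so the share that rose was that of the background. Mif, the ligand of Cd74, rose from 162 and 215 CPM to 323 and 367 CPM (0.85 ± 0.16, edgeR adjusted p = 0.00402). Ifi30, the lysosomal thiol reductase that prepares antigens, went from 223 and 209 CPM to 119 and 117 CPM (-0.86 ± 0.14, edgeR adjusted p = 0.00158), and Irf4 from 214 and 231 CPM to 96.2 and 114 CPM (-1.09 ± 0.15, edgeR adjusted p = 2.9e-04). Hdac8, a class I deacetylase, was 21, 39, 11 and 15 CPM (-1.42 ± 0.28, edgeR adjusted p = 0.00690). All 4 calls were lost without PM 1, and 9 genes were called without vehicle 1.

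The fall of Ifi30 was also present within cluster 7 (287, 217, 109 and 89.9 CPM, -1.31 ± 0.18, edgeR adjusted p = 2.1e-09), and those of Irf4 (365, 316, 118 and 144 CPM) and Hdac8 (37.1, 50.6, 10.1 and 24.8 CPM) and the rise of Mif (157, 259, 609.7 and 642 CPM) within cluster 15. The suppressor of cytokine signaling Socs1, which limits interferon signaling, fell in cluster 15 from 37.1 and 43.9 CPM to 16.5 and 13.3 CPM (-1.39 ± 0.32, edgeR adjusted p = 0.00562).

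In DC-like cells 1 of 34 of these genes was called higher. The subunit Rfx5, which binds the X box, was 17.6, 17.1, 13.9 and 15.5 CPM there and was not called. None of 40 was called in monocyte-like cells, where Ifi30 was 889, 749.8, 599.6 and 528 CPM. Without vehicle 2, 9 were called in monocyte-like cells. None of 25 was called in macrophage-like and none of 35 in plasma-like cells.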

How the data were processed

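Per the file headers and the study's methods, the authors aligned the reads and made raw UMI count matrices per gene and barcode with Cell Ranger 6.0.1, 1 library per mouse, and the deposited counts were used unchanged. The feature IDs match a GRCm38 annotation, while the labels' notes name GRCm39, so coordinates are those of GRCm38 and the build behind the counts is uncertain. A barcode was kept if it had 300 genes or more and no more than 20% of its UMIs from mitochondrial genes. Clustering used scanpy 1.11.5 and leidenalg 0.10.2 (2500 variable genes less 9 class II genes, 30 components, 15 neighbors, resolution 1). Clusters were named from marker lists, and those over 50% doublets by a scrublet-type score stayed unnamed. Scored doublets were 1.74% and 1.67% of cells in vehicle 1 and 2, 5.51% in PM 1 and 1.52% in PM 2. PM 1, without which several calls ended, thus held the largest scored share. The cutoff was set within each library and called 26.2%, 30.9%, 46.6% and 25.7% of simulated doublets. The scored shares are therefore not directly comparable between libraries, and removing scored doublets can leave others in. The doublets stayed in, and their removal was an alternative. UMIs were summed per mouse and class, and tested in edgeR 4.0.16 (R 4.3.3; TMM, filterByExpr, robust quasi-likelihood, Benjamini-Hochberg over all genes of the class), with the mouse as a block for differences between types. DESeq2 1.42.0 was an alternative. Finer classes needed at least 10 cells in every mouse.

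The named genes were the 10 genes, the called genes of the pathway lists, and the 5 most correlated with Ciita and with Cd74 (log2 of CPM plus 1, genes averaging at least 10 CPM). These genes and lists were chosen with earlier results of these data known. Shares of cells were computed after thinning to 5000 UMIs, leaving out shallower cells. The test was checked on simulated counts. Zero counts were given the level of 3 counts as an upper limit, for counting error only. The values of 1 gene of the pathway lists are not reported here.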

Additional observations from a re-analysis of the deposited data

Results flagged for a closer look

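The PM effect on 3 combinations of gene and cell type differed from that in monocyte-like cells by a test of the difference itself (edgeR, interaction of treatment and cell type). For H2-Oa the effect in B-like minus that in monocyte-like cells was -2.20 on the log2 scale, and for H2-Ob it was -2.0. For H2-Oa the effect in DC-like minus that in monocyte-like cells was -1.95. In each case the monocyte-like cells of both PM mice lay above those of both vehicle mice. The vehicle levels of the compared types were unlike and their make-up shifted, and the part of either was not tested. Dixon's test for outlying samples was not applied, since each group held 2 mice.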

How the results depend on the processing

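Among the counts of called genes recomputed under the alternatives, 175 stayed within 1.5 times the reported count and 44 moved. Among 1372 values of single genes under the alternatives, no called value reversed, and 133 uncalled values changed sign. The fits without low-count filter called 9 pathway genes in B-like, 2 in DC-like, 7 in monocyte-like and 1 in plasma-like cells, and 3 of the 10 class II genes higher in plasma-like cells. DESeq2 called 0 class II genes higher and 0 pathway genes in DC-like cells, and 3 pathway genes in monocyte-like cells. DC-like cells gave 0 pathway calls with RLE size factors, with doublets removed, with the stricter cell filter and with class II genes kept for clustering, and 1 class II gene higher with doublets removed. The stricter filter gave 1 pathway gene in monocyte-like cells. 2 sets of alternatives were chosen after seeing the data. With sub-clusters led by other types' genes left out, there were 0 class II genes higher in DC-like cells, 1 pathway gene each in monocyte-like and plasma-like cells, 13 calls in finer classes (reported: 18), and 4 genes whose effect differed between B-like and monocyte-like cells. The neutrophil-like count was 5 with doublets removed. The causes of these moves were not tested.

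Same-numbered mice did not deviate together (correlation of deviations -0.07 to 0.05 over genes), so the numbers were not taken as pairs. With the replicate block, 1 class II gene was called higher in B-like cells and 19 calls were made in finer classes, and the pathway genes called were 7 in B-like, 2 in DC-like and 1 in monocyte-like cells.

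Leaving out 1 mouse at a time (the lone mouse is assumed to vary like the other group) gave ranges for the class II genes called higher of 0 to 3 in B-like, 1 to 2 in DC-like, 1 to 3 in monocyte-like, 0 to 1 in macrophage-like, 0 to 2 in plasma-like and 3 to 8 in neutrophil-like cells, and of 0 to 1 lower in monocyte-like cells. Pathway genes called ranged from 0 to 9 in B-like, 1 to 2 in DC-like, 0 to 9 in monocyte-like and 0 to 1 in plasma-like cells. Calls in finer classes ranged from 8 (without PM 1) to 22 (without PM 2). Genes whose effect differed from that in monocyte-like cells ranged from 2 to 4 for B-like and 0 to 1 for DC-like cells.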
